A study of Homo sapiens with 12 samples.

Results

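The mRNA levels of 9 p53 target genes, CDKN1A, MDM2, FAS, ZMAT3, BTG2, RRM2B, FDXR, SESN1, and AEN, were examined in HCT116 cells under 2 cellular stressors. They are widely used readouts of p53 activity, were taken by gene symbol, and make up 9 of the 60708 genes in the count tables, where all 9 passed the filter on low counts with either stressor. HCT116 is a human colorectal carcinoma cell line that is known to have intact p53. The labels give the genotype of every library as WT, and gene counts show neither the sequence nor the protein of p53. OA-treated cells received oligomycin A, an inhibitor of the mitochondrial ATP synthase, and TN-treated cells received tunicamycin, which blocks protein N-glycosylation and stresses the ER. Both treatments lasted 24 h in medium with serum, and each had its own DMSO-treated cells, with 3 libraries labelled as biological replicates in each of the 4 groups. The labels give 5 µg/mL for either stressor, whereas the methods of the study give a higher dose for OA. The question was whether the output of p53 is raised or lowered under OA or TN.

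p53 is a transcription factor that is kept low by the ubiquitin ligase MDM2, itself a p53 target, and that is stabilized by DNA damage and other stresses. It then switches on genes that halt the cell cycle, trigger apoptosis, repair DNA, and adjust metabolism, and through CDKN1A, which encodes the CDK inhibitor p21, it lowers the genes of the cell cycle that the DREAM complex represses. Several of these targets are also known to respond to other factors, such as ATF4 and CHOP of the integrated stress response, and CDKN1A itself can be induced without p53.

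p53 binds pairs of a 10-base motif, and matches near the start sites are shown because such elements are the sequence feature by which p53 targets are known. The consensus p53 response element, 2 such motifs in a row without a spacer, was searched on both strands within 3000 bases of the start site of the canonical transcript, which can lie inside the outer bounds of a gene with several starts, and at most 2 mismatches were allowed outside the C and the G at the core of each motif. The element is its own reverse complement, so either strand gives the same matches. Such a match lay near 7 of the 9 genes and near 930 of 20033 protein-coding genes, or 4.64%. It lay near 8 of 31 other p53 targets and near 4 of 6 targets that ATF4 or CHOP are known to induce as well. FDXR and SESN1 had no match in this window. A match is a description of the sequence and was not tested for binding. The matches of 5 genes are in capitals with 20 bases on each side, in hg38 and on the strand of the gene.
CDKN1A: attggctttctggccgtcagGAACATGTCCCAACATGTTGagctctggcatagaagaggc
MDM2: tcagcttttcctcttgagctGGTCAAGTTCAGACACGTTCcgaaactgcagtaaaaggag
FAS: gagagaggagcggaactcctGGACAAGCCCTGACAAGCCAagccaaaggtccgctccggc
ZMAT3: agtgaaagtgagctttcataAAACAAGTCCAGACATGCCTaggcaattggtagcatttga
AEN: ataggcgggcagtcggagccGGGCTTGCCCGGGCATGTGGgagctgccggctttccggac

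The match of CDKN1A, at chr6:36676449-36676468, lies at -2256 from the start site of the canonical transcript, where negative positions are upstream, at the outer bound of the gene, and has 2 mismatches. That of AEN, at chr15:88621306-88621325, lies at -25, also with 2 mismatches. Downstream of the canonical start site lie the matches of MDM2, at chr12:68808923-68808942, by 755 bases, and of FAS, at chr10:88991309-88991328, by 520 bases, also with 2 mismatches each. ZMAT3, on the minus strand, has the match without any mismatch, at chr3:179070188-179070207 and 1611 bases downstream of its start site. RRM2B has a match with 1 mismatch 2111 bases downstream.

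The libraries held between 9884124 and 24983573 counts, so that the 3 replicates and not depth limited the precision for genes at the level of CDKN1A, which had at least 1988 counts in each library of the OA comparison. Markers of colorectal epithelial cells summed to between 4067 and 8466 CPM (counts scaled to library size), with none of 5 at 0. The 4 leukocyte markers summed to at most 0.666 CPM. The 4 fibroblast markers summed to 1.38 to 2.44 CPM in the DMSO-treated cells of OA and to 4.24 to 12.8 CPM in OA-treated cells, where 2 of the 4 were at 0, and to 1.93 to 4.59 and 2.21 to 4.52 CPM in the DMSO-treated and TN-treated cells of the other comparison. Their part in the results was not tested. Some libraries stood apart in how their counts followed GC content. Per 10 percentage points of transcript GC content, the log2 level relative to the DMSO mean shifted by -0.17, 0.66, and 0.27 in OA replicates 1 to 3 and by 0.72, -0.10, and -0.12 in TN replicates 1 to 3. The 3 DMSO libraries of OA were at -0.28, 0.30, and -0.02, and those of TN at 0.28, -0.11, and -0.17. The values of the 9 genes are therefore also given without OA replicate 2 and without TN replicate 1. RN7SL1, an abundant non-coding RNA, took 8.40% to 17.9% of the counts with OA against 6.02% to 8.11% with DMSO, and 9.22% to 13.3% with TN against 6.23% to 7.50%, the most in OA replicate 2 and TN replicate 1. Its part in the results was not tested. In bulk RNA, fewer cells with a transcript and less of it per cell cannot be told apart.

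Of the 9 p53 targets, 1 rose with OA and none fell, by edgeR or by DESeq2. The gene that rose was CDKN1A, by 4.13-fold, and the other 8 had log2 fold changes between -0.81 and 0.69. The background was 2.76% of 14681 tested genes called higher and 1.72% called lower by edgeR's quasi-likelihood test at a Benjamini-Hochberg adjusted p under 0.05. DESeq2 called 6.19% of 15485 genes higher and 4.41% lower. The median log2 fold change of the 9 genes was -0.17, beside -0.02 over all tested genes, and it was 0.11 with GC offsets and -0.36 with scaling to total counts. The OA and DMSO libraries did not overlap for 3 of the 9 genes, CDKN1A and BTG2 with OA higher and SESN1 with OA lower, whereas 16.3% of all tested genes were higher and 15.5% lower without overlap. Before adjustment, 2 of the 9 genes, CDKN1A and BTG2, had a p under 0.05. The share of all tested genes at that level is not given here for OA or TN. Such unadjusted counts are therefore not read as results about the targets.

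With TN, no target passed the same test, with 3.65% of 14432 genes called higher and 3.34% called lower. Before adjustment, 2 of the 9 had a p under 0.05, CDKN1A and SESN1, again without a share of all genes at that level. DESeq2 called CDKN1A alone, beside 5.44% of all genes called higher, and the 9 values had a median of 0.00, beside -0.03 over all tested genes. The libraries of TN could be paired by replicate number, and with the replicate as a block CDKN1A rose whereas FAS and SESN1 fell. In that fit 11.8% of all genes were called higher and 15.3% lower, so that 1 and 2 of the 9 genes are to be read against these shares. The same 3 genes as with OA had no overlap between treated and DMSO libraries, CDKN1A and BTG2 higher and SESN1 lower, beside 15.9% and 16.8% of all tested genes. When libraries were scaled by their totals instead of TMM, the median of all genes moved from -0.02 to -0.23 with OA and from -0.03 to -0.18 with TN, and the share of calls that were higher from 61.6% to 47.1% and from 52.2% to 37.7%.

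**Figure D1:**
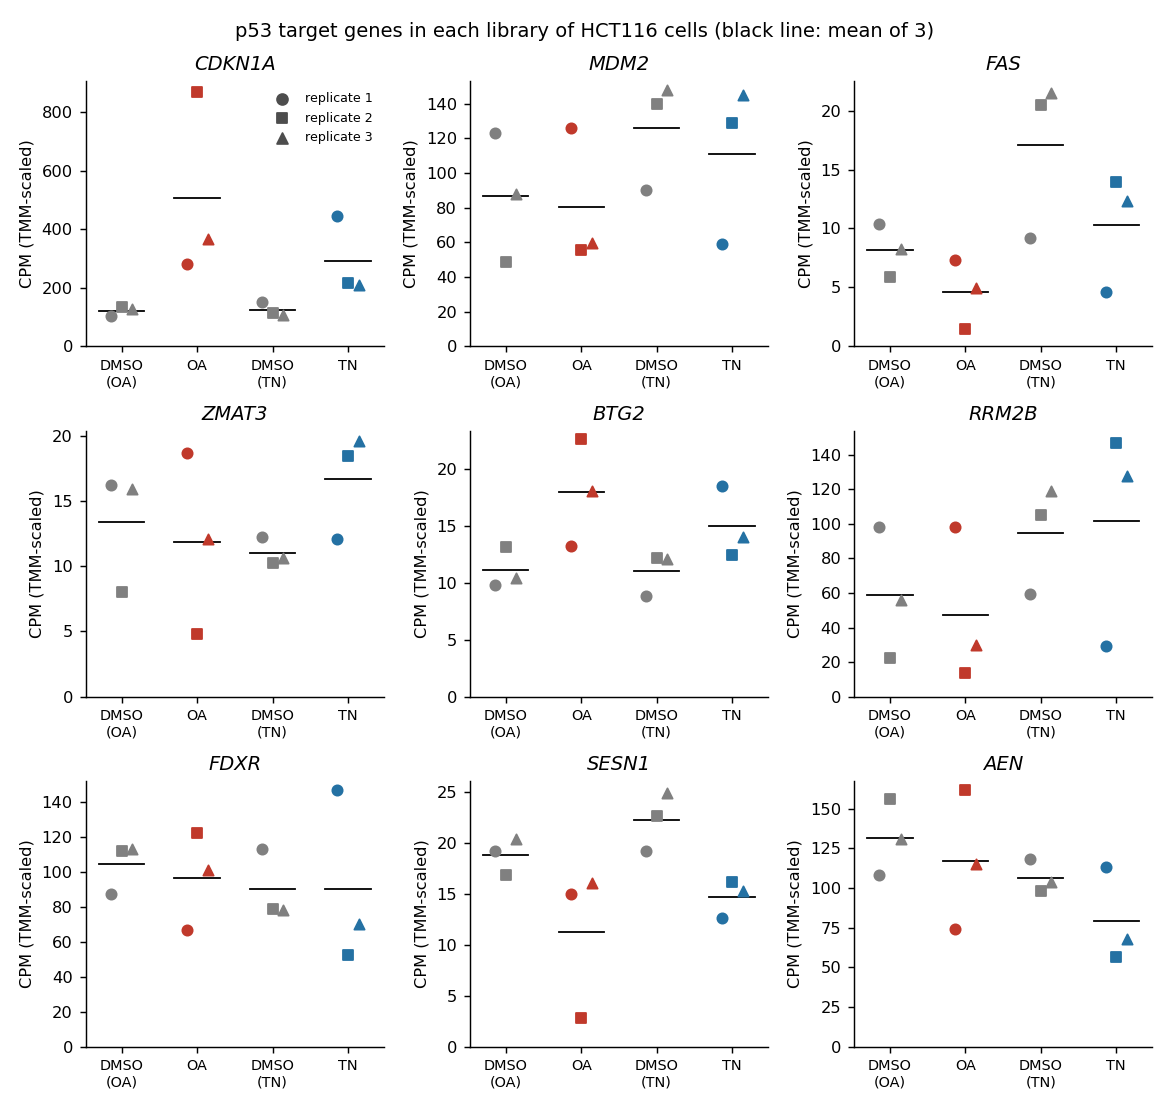
Level of each p53 target in TMM-scaled CPM, on linear axes from 0, in the 12 libraries, with 1 symbol per library, shaped by replicate number, and a black line at the mean of each group of 3. The OA and TN libraries of CDKN1A all lie above their DMSO libraries, those of SESN1 all lie below, and most other genes overlap.

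Among the genes that halt the cell cycle, CDKN1A stood at 104, 136, and 127 CPM in the DMSO replicates 1 to 3 of OA and at 283, 868, and 366 CPM in OA-treated cells. CDKN1A lies on chromosome 6 (hg38, 36676460 to 36687337, plus strand). All OA libraries were above all DMSO libraries, and OA replicate 2 was the highest by far. The group means were 122 ± 16.5 and 506 ± 316 CPM (SD, n = 3), and the log2 fold change was 2.05 ± 0.42 (SE), with a 95% interval of 1.07 to 3.02 and a Benjamini-Hochberg adjusted p of 0.0396 (edgeR). Without OA replicate 2 it was 1.39 with an adjusted p of 0.0161. The call was lost without DMSO replicate 1, 2, or 3 (adjusted p = 0.141, 0.128, and 0.187, edgeR) or OA replicate 3 (0.0872). Over all 6 fits without 1 library, the log2 fold change stayed between 1.39 and 2.31. Without 1 of the DMSO libraries, no more than 5 of all genes were called.

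With TN, CDKN1A went from 151, 115, and 107 CPM in DMSO-treated cells to 447, 216, and 209.9 CPM. All TN libraries were higher than all DMSO libraries. The group means were 124 ± 23.5 and 291 ± 136 CPM (SD, n = 3). TN cells were 2.34-fold above DMSO, or 1.23 ± 0.34 (SE) on the log2 scale, with a 95% interval of 0.43 to 2.03 and an adjusted p of 0.0747 that missed the threshold (edgeR, Benjamini-Hochberg). With the replicate block it was 1.15 ± 0.17 (SE) and the adjusted p was 0.00247, and the same-numbered pairs differed by 1.57, 0.90, and 0.98 on the log2 scale. TN replicate 1 differed most. Without it, the log2 fold change was 0.82 and passed with an adjusted p of 0.0360 (edgeR).

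BTG2, an antiproliferative gene on chromosome 1 (203305491 to 203309602, plus strand), stood at 9.79, 13.1, and 10.4 CPM with DMSO and at 13.2, 22.6, and 18.0 CPM with OA. The groups did not overlap, by a margin of 13.2 against 13.1 CPM. Its log2 fold change was 0.69 ± 0.30 (SE), with a 95% interval of 0.00 to 1.38 and an adjusted p of 0.214 (edgeR), and it was 0.47 without OA replicate 2. In the other comparison BTG2 was at 8.85, 12.2, and 12.1 CPM with DMSO and at 18.5, 12.4, and 14.0 CPM with TN. Again the groups just failed to overlap, and TN replicate 1 was the highest. On the log2 scale TN was above DMSO by 0.44 ± 0.26 (SE), with an interval of -0.18 to 1.05 and an adjusted p of 0.364 (edgeR), and by 0.31 without TN replicate 1.

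MDM2, the negative feedback regulator of p53 on chromosome 12 (68808177 to 68845544, plus strand), was at 123, 48.5, and 87.9 CPM with DMSO and at 126, 55.7, and 59.7 CPM with OA. The groups overlapped throughout, and replicate 2 was the lowest in both. Its log2 fold change of -0.10 ± 0.43 (SE) had an interval of -1.09 to 0.88 and an adjusted p of 0.904 (edgeR). For TN it was at 90.2, 139.7, and 148 CPM with DMSO and at 59.2, 129, and 145 CPM with TN, where replicate 1 was the lowest in both groups. Here the log2 fold change was -0.18 ± 0.37 (SE), with an interval of -1.04 to 0.67 and an adjusted p of 0.810 (edgeR). The pairs differed by -0.61, -0.12, and -0.03 on the log2 scale. The direction of MDM2 is not resolved, since it was 0.13 without OA replicate 2 and 0.17 without TN replicate 1. MDM2 shares 9.45% of its exonic bases with a lncRNA on the other strand, which had 0 to 3 counts.

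Among the genes of cell death, FAS, a death receptor on chromosome 10 (88953813 to 89029605, plus strand), was at 10.4, 5.92, and 8.22 CPM with DMSO and at 7.36, 1.49, and 4.97 CPM with OA. The OA libraries were at the lower end but overlapped, and replicate 2 was again the lowest. Its log2 fold change was -0.81 ± 0.53 (SE), with an interval of -2.03 to 0.40 and an adjusted p of 0.392 (edgeR), and it was -0.38 without OA replicate 2. With TN, FAS went from 9.23, 20.5, and 21.5 CPM to 4.62, 13.9, and 12.3 CPM. Each TN library was below the DMSO library of the same number, by 0.98, 0.56, and 0.81 on the log2 scale, although the groups overlapped. Without the block this was -0.73 ± 0.48 (SE) with an adjusted p of 0.405 (edgeR), and in the fit with the replicate block FAS fell, at -0.78 ± 0.20 (SE) and an adjusted p of 0.0215. Without TN replicate 1, FAS stood at -0.33 with an adjusted p of 0.566 (edgeR, no block).

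AEN, a nuclease of apoptotic cells on chromosome 15 (88621337 to 88632281, plus strand), was at 108, 156, and 131 CPM with DMSO and at 74.1, 162, and 115 CPM with OA. OA replicate 2 was the highest of the 6 libraries and OA replicate 1 the lowest. This gave a log2 fold change of -0.17 ± 0.32 (SE), with an interval of -0.90 to 0.56 and an adjusted p of 0.778 (edgeR), and -0.50 without OA replicate 2. With TN, AEN went from 118, 97.9, and 104 CPM to 113, 56.4, and 67.8 CPM. TN replicates 2 and 3 were below all DMSO libraries and replicate 1 was not. AEN stood at -0.43 ± 0.29 (SE) on the log2 scale, with an interval of -1.10 to 0.24 and an adjusted p of 0.415 (edgeR), and -0.74 with an adjusted p of 0.0369 without TN replicate 1.

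ZMAT3, an RNA-binding zinc finger protein that regulates splicing and mRNA stability, lies on chromosome 3 (178960121 to 179072215, minus strand). It was at 16.2, 8.01, and 15.9 CPM with DMSO and at 18.7, 4.78, and 12.1 CPM with OA. The groups overlapped, and the log2 fold change of -0.17 ± 0.50 (SE) had an interval of -1.31 to 0.98 and an adjusted p of 0.863 (edgeR), and was 0.23 without OA replicate 2. With TN, ZMAT3 went from 12.2, 10.2, and 10.6 CPM to 12.1, 18.4, and 19.6 CPM. TN replicate 1 was within the DMSO range and the other two were above it. ZMAT3 had a log2 fold change of 0.60 ± 0.26 (SE), with an interval of -0.01 to 1.21 and an adjusted p of 0.211 (edgeR), and 0.83 with an adjusted p of 0.0338 without TN replicate 1.

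RRM2B, a ribonucleotide reductase subunit that supplies dNTPs for DNA repair and mitochondrial DNA, lies on chromosome 8 (102204502 to 102238961, minus strand). It varied most between replicates, at 98.3, 22.4, and 55.7 CPM with DMSO and at 98.1, 13.5, and 29.9 CPM with OA. The order of the replicate numbers was the same in both groups. A log2 fold change of -0.31 ± 0.73 (SE) resulted, with an interval of -2.00 to 1.37 and an adjusted p of 0.825 (edgeR), while the value was 0.17 without OA replicate 2. For TN, RRM2B was at 59.4, 105, and 119 CPM with DMSO and at 29.3, 147, and 128 CPM with TN. TN replicate 1 was the lowest and the other two were the highest of the 6 libraries. The log2 fold change was 0.10 ± 0.56 (SE), with an interval of -1.20 to 1.40 and an adjusted p of 0.935 (edgeR), and it was 0.60 without TN replicate 1.

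Of the targets with roles in metabolism, SESN1, a stress-responsive inhibitor of mTORC1 signaling, lies on chromosome 6 (108984309 to 109094846, minus strand). It was at 19.2, 16.8, and 20.4 CPM with DMSO and at 15.0, 2.79, and 16.0 CPM with OA. All OA libraries were below the DMSO libraries, by far the most in replicate 2. Its log2 fold change was -0.73 ± 0.55 (SE), with an interval of -1.99 to 0.53 and an adjusted p of 0.454 (edgeR), and it was -0.28 without OA replicate 2. With TN, SESN1 went from 19.2, 22.6, and 24.9 CPM to 12.6, 16.1, and 15.3 CPM, and the groups did not overlap. Without the block, SESN1 stood at -0.60 ± 0.22 (SE), with an interval of -1.12 to -0.07 and an adjusted p of 0.156 (edgeR). With the replicate block SESN1 fell, at -0.60 ± 0.17 (SE) and an adjusted p of 0.0356, and the pairs differed by -0.60, -0.48, and -0.70 on the log2 scale. This call was the only one for SESN1 among 9 alternatives with TN. The block with GC offsets gave -0.36 with an adjusted p of 0.0971 (edgeR), and without TN replicate 1 SESN1 stood at -0.45 (0.152, no block).

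FDXR, a mitochondrial ferredoxin reductase on chromosome 17 (74862497 to 74873031, minus strand), was at 87.5, 112, and 113 CPM with DMSO and at 66.8, 122, and 101 CPM with OA. The groups overlapped, and the log2 fold change of -0.11 ± 0.28 (SE) had an interval of -0.75 to 0.53 and an adjusted p of 0.841 (edgeR), and was -0.32 without OA replicate 2. For TN, FDXR was at 113, 78.9, and 78.2 CPM with DMSO and at 147, 52.7, and 70.1 CPM with TN. TN replicate 1 was the highest and the other two were the lowest of the 6 libraries. The log2 fold change was 0.00 ± 0.39 (SE), with an interval of -0.92 to 0.92 and an adjusted p of 0.999 (edgeR), and it was -0.51 without TN replicate 1.

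**Figure D2:**
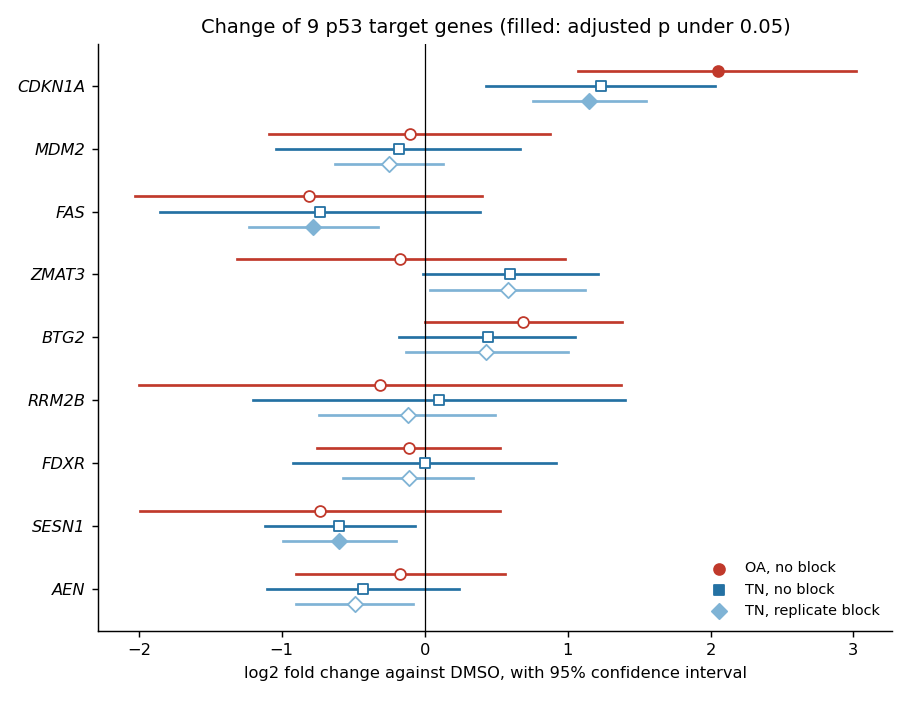
Log2 fold change of each p53 target against DMSO with OA, with TN, and with TN in the fit with the replicate block, as symbols with lines for the 95% interval and filled where the adjusted p is under 0.05 (edgeR). The filled symbols are CDKN1A with OA, at 2.05, and CDKN1A, FAS, and SESN1 with TN and the block, at 1.15, -0.78, and -0.60.

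The changes with OA and TN were compared by a contrast over all 12 libraries, since the stressors had separate DMSO libraries. No target differed, with an adjusted p of 1.00 for each (edgeR, Benjamini-Hochberg) and none of the 9 under 0.05 before adjustment. Of 15429 genes tested, 0 passed, and 2.26% had an unadjusted p under 0.05. For CDKN1A, the OA change exceeded the TN change by 0.74 on the log2 scale, with an interval of -0.40 to 1.88. The differences were -0.81 for ZMAT3 (-2.21 to 0.59), -0.46 for RRM2B (-2.80 to 1.88), and between -0.19 and 0.18 for the other 6 genes. These intervals leave room for differences in either direction.

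The 9 genes differ in base composition. Whether their variation between replicates follows it was not tested. RRM2B has the lowest GC content in its longest transcript, 35.1%, followed by ZMAT3 with 38.2%, MDM2 with 39.5%, SESN1 with 40.6%, and FAS with 42.1%, whereas BTG2 has 50.5%, AEN 50.8%, CDKN1A 58.1%, and FDXR 61.8%. In OA replicate 2, which has the steepest slope of its group, the 5 genes of low GC content were all below the mean of the DMSO libraries, at -1.87, -1.39, -0.53, -2.70, and -2.32 on the log2 scale in the same order, and the other 4 were above it. In TN replicate 1, RRM2B, MDM2, SESN1, and FAS were below the DMSO mean, at -1.62, -1.06, -0.80, and -1.76, ZMAT3 was at 0.14, and the 4 genes of higher GC content were above it. With GC offsets, which were added after the data were seen, CDKN1A stood at 1.81 with OA (adjusted p = 0.00694, edgeR) and was called with TN as well (adjusted p = 0.00374, edgeR), in fits that called 8.41% and 11.1% of all genes higher. MDM2, ZMAT3, and RRM2B changed sign with OA, to 0.33, 0.20, and 0.11.

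**Figure D3:**
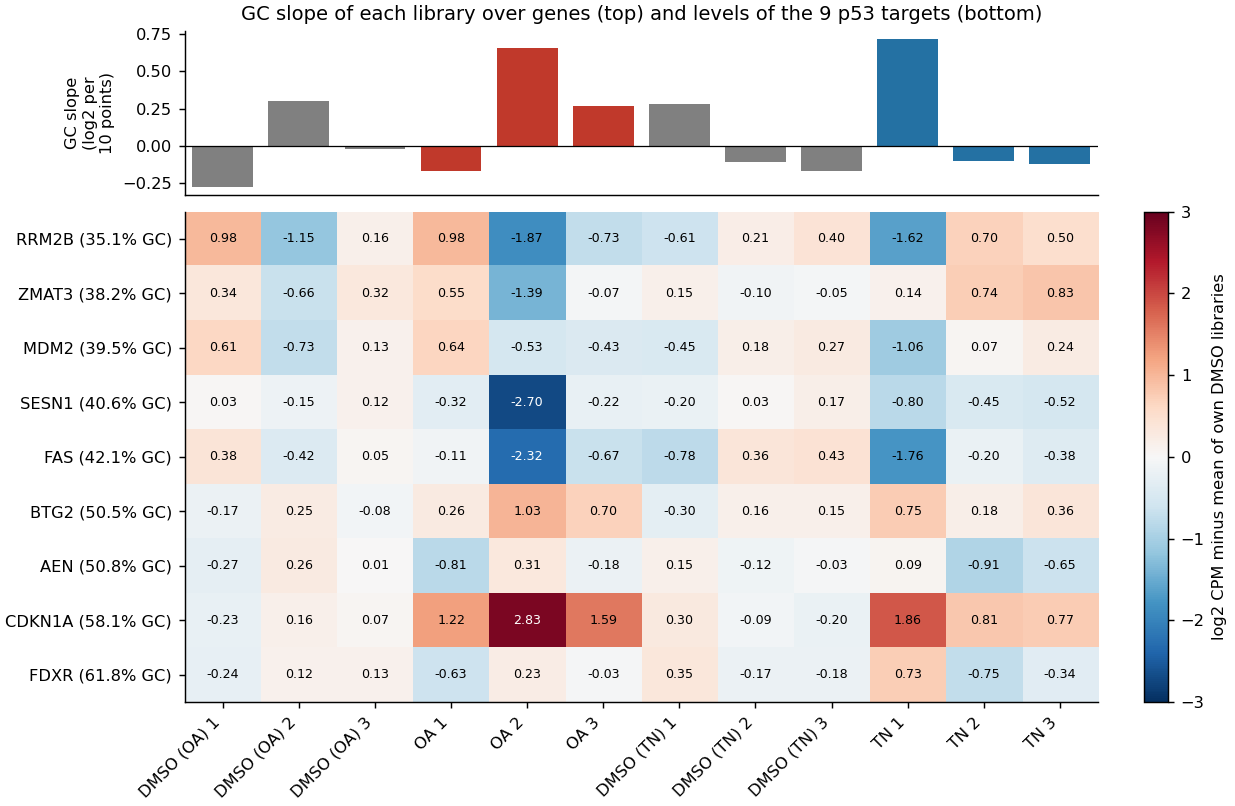
Upper bars, GC slope of each of the 12 libraries in log2 units per 10 percentage points of transcript GC content; lower grid, log2 CPM of each p53 target minus the mean of the DMSO libraries of its comparison, with genes ordered from 35.1% to 61.8% GC, blue for lower, and red for higher. OA replicate 2 and TN replicate 1 have the highest slopes, 0.66 and 0.72. In OA replicate 2 the cells from RRM2B to FAS are below 0 and those from BTG2 to FDXR above it. They do not rise evenly with GC content, since SESN1 is the lowest at -2.70 and FDXR stands at 0.23. In TN replicate 1, ZMAT3 is at 0.14 and AEN at 0.09.

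Of 12 genes of the p53 network, 0 were called with OA by edgeR. An unadjusted p under 0.05 was found for 4, without a share of all genes to set beside it. DESeq2 called 1 higher, beside 6.19% of all genes. With TN, 1 was called: CHEK2, a kinase that phosphorylates p53 after DNA damage, fell by 1.44 (adjusted p = 0.00783, edgeR), which was lost without DMSO replicate 2 (0.0568) or 3 (0.0590). MDM4, the partner of MDM2 in restraining p53, was at 0.38 with OA and 0.27 with TN, with adjusted p-values of 0.340 and 0.425 (edgeR). It was called higher under 1 of 9 alternatives with either stressor. Over these alternatives MDM4 ranged from 0.21 to 0.63 with OA and from 0.14 to 0.46 with TN. The 12 genes had a median of 0.20 with OA and 0.13 with TN.

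The paralogs of the 9 genes gave a contrast within families. SESN2, the sestrin known as an ATF4 target, rose from 13.9, 14.5, and 16.3 CPM to 99.6, 286, and 117 CPM with OA, a log2 fold change of 3.49 ± 0.44 (SE) with an adjusted p of 0.0157 (edgeR), while SESN1 did not rise. The value of SESN2 was 2.85 without OA replicate 2. With TN, SESN2 rose by 2.94 ± 0.38 (SE) with an adjusted p of 0.00716 (edgeR). SESN3, the third sestrin, was at -1.62 with OA and -1.13 with TN, with adjusted p-values of 0.285 and 0.170 (edgeR). It fell with both stressors in the fit with the replicate block (adjusted p = 0.00961 with OA and 0.00461 with TN, edgeR). BTG1, the nearest relative of BTG2, rose by 3.25 ± 0.46 (SE) with OA and by 2.01 ± 0.24 (SE) with TN, with adjusted p-values of 0.0171 and 0.00662 (edgeR). Leaving out OA replicate 2 put BTG1 at 2.57 with OA. BTG3 was at -0.35 with OA and -1.08 with TN without passing, but fell with TN in the fit with the replicate block, by 1.27 (adjusted p = 0.0101, edgeR). RRM2, the S-phase counterpart of RRM2B, fell from 394, 423, and 396 CPM to 90.8, 85.1, and 114 CPM with OA, by 2.06 ± 0.23 (SE) with an adjusted p of 0.0116 (edgeR). It fell by 2.24 ± 0.34 (SE) with TN, with an adjusted p of 0.0114. ISG20, a nuclease related to AEN that lies 3388 bases beyond it, rose by 3.78 ± 0.70 (SE) with OA (adjusted p = 0.0303, edgeR) and stood at 1.22 with TN (0.274). OA replicate 2 was far above the other two, at 136 CPM against 25.3 and 26.5 CPM, and without it ISG20 was higher by 2.50 (adjusted p = 0.00537, edgeR).

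The other CDK inhibitors of the family of CDKN1A were not called: CDKN1B was at -0.13 with OA and 0.14 with TN, and CDKN1C at 0.72 and 0.47. Among the 9 paralogs, 3 were called higher and 1 lower with OA, beside 2.76% and 1.72% of all tested genes. With TN, 2 were called higher and 1 lower, beside 3.65% and 3.34%. The replicate block with TN called 2 higher and 3 lower, beside 11.8% and 15.3%. With OA the block called 3 higher and 2 lower, beside 11.7% and 15.0%. The calls of SESN2, BTG1, and RRM2 were kept under all 9 alternatives to the fit with either stressor. When single libraries were left out, these calls held in 6 of 6 fits with TN for each of these 3 genes, and with OA in 3 of 6, being lost without DMSO replicate 1, 2, or 3 (adjusted p between 0.0773 and 0.133, edgeR). ISG20 was lost with OA without the same libraries or OA replicate 3, at 0.0581 to 0.161.

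Of 31 other p53 targets, 27 were tested with OA, and 1 rose and 1 fell, beside 2.76% and 1.72% of all tested genes. PLK3, a polo-like kinase of the stress response, rose by 1.72 (adjusted p = 0.0359, edgeR), and E2F7, a repressor of the cell cycle, fell by 1.21 (0.0427). The log2 fold changes were positive for 14 and negative for 13, with a median of 0.16 and a range of -2.34 to 1.74. With TN, PLK3 rose by 0.98 (adjusted p = 0.0409, edgeR), and 3 of 27 fell, with values of -2.41 for E2F7, -1.60 for PLK2, and -2.36 for KITLG, the ligand of KIT. The median was -0.04, with 12 positive and 15 negative. With the replicate block, 4 of the 27 were called higher and 8 lower with TN, beside 11.8% and 15.3% of all tested genes in that fit. The block with OA called 4 higher and 4 lower, beside 11.7% and 15.0%. With OA, PLK3 and E2F7 were not called without any 1 of the DMSO libraries or without OA replicate 3 (adjusted p between 0.0883 and 0.234, edgeR), and E2F7 was at 0.0534 under scaling to total counts. With TN, the call of KITLG was kept under 6 of 9 alternatives (adjusted p up to 0.0615) and that of PLK3 under 8 of 9 (up to 0.0567). With TN, E2F7 and PLK2 were called in every fit without 1 library, and PLK3 and KITLG only in the fit without TN replicate 1 (others between 0.0661 and 0.168).

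The values of 6 p53 targets that ATF4 or CHOP are known to induce as well were also taken. Which of these factors moved them was not tested and cannot be told apart in these counts. With OA, 5 of the 6 rose, SESN2, GDF15, BBC3, TNFRSF10B, and GADD45A, with a median of 2.26. With TN 4 of the 6 rose, without GADD45A, with a median of 1.64. These counts stand beside 2.76% and 3.65% of all tested genes called higher. GADD45A stood at 1.11 with TN (adjusted p = 0.0565, edgeR) and rose in the fit with the replicate block (0.00899), which makes 5 of the 6. That fit called 11.8% of all genes higher. GDF15, a secreted stress cytokine, went from 78.1, 64.8, and 90.1 CPM to 930.1, 792, and 956 CPM with OA, at 3.52 ± 0.25 (SE) and an adjusted p of 0.00219 (edgeR). With TN, GDF15 rose by 3.22 ± 0.21 (SE), with an adjusted p of 0.00240. TNFRSF10B, the death receptor DR5, rose by 2.40 with OA and 1.73 with TN (adjusted p = 0.0189 and 0.00501, edgeR). FAS was called with neither stressor in this test. Without any 1 of the DMSO libraries of OA, only GDF15 of the 6 was called, in fits that called 3 to 5 of all genes higher. The medians over the fits without 1 library were 1.96 to 2.43 with OA and 1.45 to 1.72 with TN. With TN, 3 of the 6 were called without any 1 of the DMSO libraries or TN replicate 2 or 3, namely SESN2, GDF15, and TNFRSF10B, so that BBC3 was lost. Those fits called 79 to 255 of all genes higher. PMAIP1, which encodes the BH3-only protein NOXA, stood at 0.75 with OA and -0.25 with TN (adjusted p = 0.256 and 0.839, edgeR), and with OA it was called in the fit with the replicate block (0.80, adjusted p = 0.0304).

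The 19 genes of the cell cycle that p21 lowers through DREAM were negative in all 19 with OA and in all 19 with TN, with medians of -1.23 and -1.53. With OA, 6 fell, CCNB1, AURKA, BIRC5, CCNA2, MYBL2, and MCM5, and CCNA2, which encodes cyclin A2, did so by 2.04 (adjusted p = 0.0296, edgeR). With TN, 6 fell as well, CDK1, AURKA, KIF23, BUB1, CCNA2, and TOP2A, and CCNA2 did so by 2.44 (adjusted p = 0.00332, edgeR). Of all tested genes, 1.72% with OA and 3.34% with TN were called lower. The treated libraries were below all DMSO libraries in 16 of the 19 genes with OA, beside 15.5% of all tested genes. With TN they were so in 16 of the 19, not all of them the same, beside 16.8%. The fit with the replicate block called 18 of the 19 lower with either stressor, beside 15.0% of all tested genes with OA and 15.3% with TN. DESeq2 called 14 lower with OA and 15 with TN, beside 4.41% and 5.43% of all genes. Without 1 of the DMSO libraries of OA or without OA replicate 3, 0 were called lower. Those fits called 0 to 24 of all genes lower. In them 14 or 15 had an unadjusted p under 0.05, without a share of all genes to set beside it, and the medians stayed between -1.37 and -1.07. Without 1 library of the TN comparison, 2 to 18 were called lower, the most without TN replicate 1. These fits called 72 to 1276 of all genes lower, also the most without TN replicate 1. These genes follow the share of cycling cells, and p21 and other routes to their lower level cannot be told apart in these counts.

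**Figure D4:**
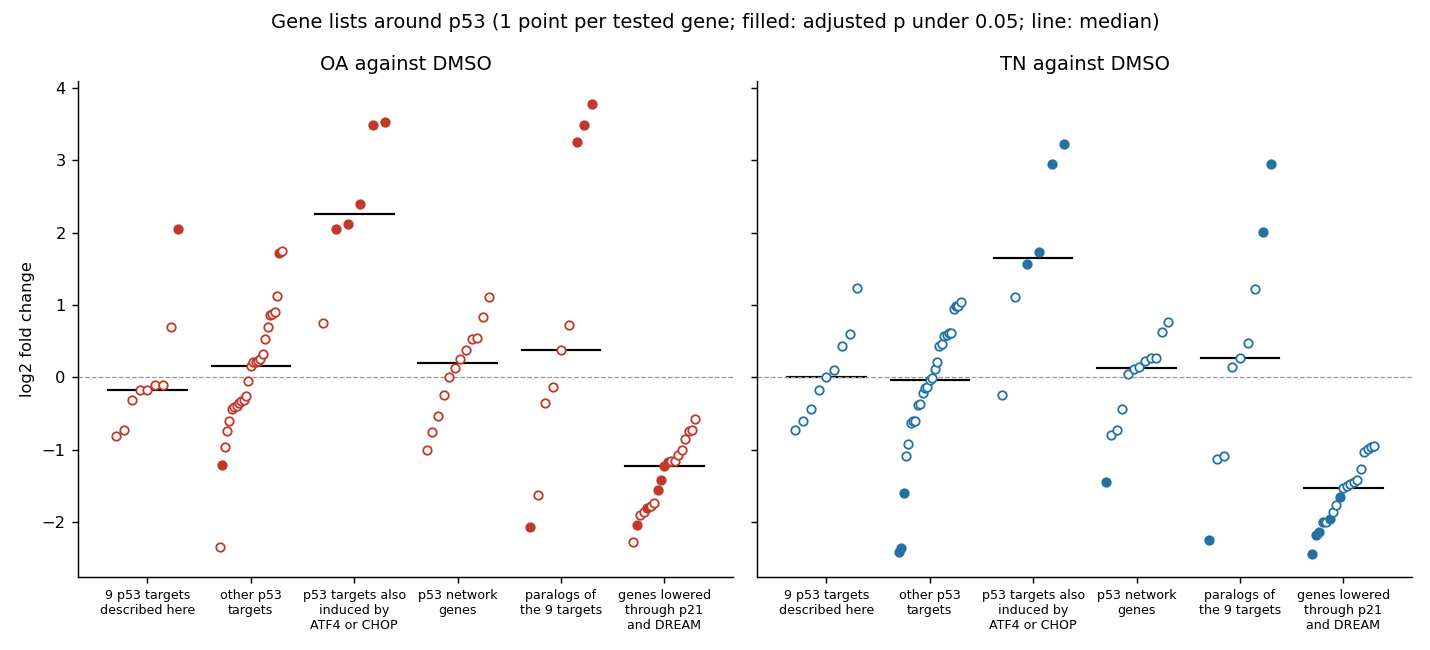
Log2 fold changes against DMSO of single genes in 6 lists with OA and TN, with 1 point per tested gene, filled where the adjusted p is under 0.05, and a line at the median. The 9 p53 targets scatter around 0 apart from CDKN1A, the 6 targets that also respond to ATF4 or CHOP have medians of 2.26 and 1.64, and all 19 DREAM genes lie below 0.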

How the data were processed

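RNA-seq of 12 HCT116 libraries was used, 3 for each of OA, TN, and their DMSO-treated cells. The authors aligned reads to hg38 with STAR and counted them per gene with a Gencode annotation, and the deposited values are raw counts. The strand column kept is not given in the sources used here, and the labels name a stranded total RNA kit. The authors' tables of their own comparisons (log2 fold changes, p-values) were not used. The replicates are labelled as biological, and p-values measure the spread between them. In no group did 2 libraries agree within sampling noise (chi-square per gene at least 5.92). Replicates 2 and 3 were closest in TN-treated cells, at 5.92, and in their DMSO-treated cells, at 6.78. Pairs with replicate 1 in these groups were at 63.1 to 98.9. Whether replicates 2 and 3 share a batch was not tested.

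Counts were normalized by TMM, filtered with filterByExpr, and tested with edgeR 4.0.16 (quasi-likelihood, two-sided, R 4.3.3) separately for each stressor, adjusted by Benjamini-Hochberg over every gene tested, at a threshold of 0.05. Levels are TMM-scaled CPM. Log2 levels use a prior count of 2. Same-numbered TN and DMSO libraries deviated together from their group means (r = 0.64, 0.41, and 0.43 across genes), so they were treated as pairs, from the shared numbers alone, although libraries numbered 2 and 3 deviated together as closely (0.38 and 0.44). With OA these were 0.62, 0.54, and 0.09, and the libraries were not. Alternatives were DESeq2 1.42.0 or its size factors, total counts, other filters, a replicate block, 1 fit of all libraries, and leaving out each library. GC offsets, a correction chosen once the data had been seen, came from a smooth curve (span 0.3) over genes with a mean count of at least 20. Gene positions are from Gencode version 44. The rule for named genes took every target, the paralogs, and at most 3 genes of lowest p per other list and comparison. Genes outside it were picked from short counts with their values known. The members, lists, and tests were chosen with earlier results of these data known. The scripts were tested on simulated data. Some items that this rule names, and 2 matched sequences, are not reported here.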

Additional observations from a re-analysis of the deposited data

How the results depend on the processing

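With 3 libraries per group, changes of the size that most targets showed could not be resolved. CDKN1A was called with OA under all 9 alternatives (1.72 to 2.05) but in only 2 of 6 fits without 1 library, and with TN under 6 of 9 (1.02 to 1.23) and in 1 of 6. The numbers of all genes called, 658 with OA and 1009 with TN, were 1642 and 1725 with DESeq2, 1572 and 1648 without a filter, 2365 and 3124 with GC offsets, and 1682 for OA in 1 fit of all libraries. With the replicate block they were 3914 and 3915, and with the block and GC offsets 3781 and 5402. Leaving out 1 library gave 3 to 1179 for OA and 151 to 2361 for TN. The OA libraries share only a number, and the block called 2 targets higher, CDKN1A and BTG2, beside 11.7% of all genes higher and 15.0% lower. Each OA library correlated best with the DMSO library of its own number, replicate 3 only at 0.09. With TN, 1 target was called higher with total counts, DESeq2, no filter, the block, or GC offsets. These fits called 3.67%, 5.44%, 2.63%, 11.8%, and 11.1% of all genes higher. The block called 2 targets lower, FAS and SESN1, beside 15.3% of all genes. With the block and GC offsets, 2 were called higher and 2 lower, the latter FAS and AEN, in a fit that called 18.3% of all genes higher and 19.2% lower. The OA median of -0.17 was 0.11 with GC offsets, 0.05 with the block as well, and -0.36 with total counts. The TN median of 0.00 was -0.22 with total counts and -0.12 with the block. Without 1 library, 0 to 1 target was called higher with OA, 0 to 2 higher and 0 to 1 lower with TN, and the medians ranged from -0.60 to 0.13 and from -0.24 to 0.17.

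Signs that turned were as follows. With OA and GC offsets, MDM2 was 0.33, ZMAT3 0.20, RRM2B 0.11, and CDKN1B 0.01, and with the block as well MDM2 was 0.32, ZMAT3 0.19, and RRM2B 0.05. With TN, FDXR was -0.01 with DESeq2's size factors, -0.22 with total counts, -0.03 with DESeq2, -0.08 without a filter, -0.11 with the block, -0.04 in 1 fit of all libraries, -0.21 with GC offsets, and -0.23 with both. RRM2B was -0.12 with the block, and MDM2 0.03 with GC offsets and 0.02 with both. Leaving out 1 library moved OA values from -0.60 to 0.30 for MDM2, -0.68 to 0.23 for ZMAT3, -1.45 to 0.36 for RRM2B, -0.50 to 0.06 for AEN, -0.32 to 0.08 for FDXR, and -0.62 to 0.26 for CDKN1B. It moved TN values from -0.51 to 0.27 for FDXR, -0.26 to 0.60 for RRM2B, -0.42 to 0.17 for MDM2, and -0.02 to 0.38 for CDKN1B. The differences between stressors moved from -0.55 to 0.34 for MDM2, -0.75 to 0.28 for FAS, -1.68 to 0.09 for RRM2B, -0.41 to 0.44 for FDXR, -0.51 to 0.28 for SESN1, and -0.06 to 0.61 for AEN. The cause of these shifts was not tested.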
